A study of Mus musculus with 20 samples.

Results

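Nes, Sox2, Vim, Fabp7, Hes5, Notch1, Eomes, Sox4, Sox11 and Dcx are 10 genes commonly used to mark neural progenitors and newly formed neurons, and they were followed here as 10 of the 45700 genes listed for mouse brain. They are taken as a list of gene names that was drawn up with earlier results of these data known. All 10 averaged 1 FPKM or more across the 20 libraries, as the 15247 genes kept for testing did, and none of their 200 values was 0. FPKM counts sequenced fragments relative to transcript length and to the fragments mapped in the library, so levels of different genes can be set side by side. The brains came from the "Taiwanese" model of severe spinal muscular atrophy (SMA), bred on a congenic FVB background. SMA pups had no functional murine Smn and carried the human SMN2 transgene on 1 allele (Smn-/-; SMN2tg/0). Control littermates were heterozygous for the deletion (Smn-/+; SMN2tg/0), so every mouse carried the transgene and lacked murine Smn on at least 1 chromosome, in every cell of the body. Untreated brains were taken at P5, the early-symptomatic stage (2 replicates per genotype), and at P7, the late-symptomatic stage (3 replicates per genotype). From each group, total cytoplasmic RNA and RNA recovered from the polysomal fractions of a sucrose gradient were sequenced, with 1 library per replicate number and fraction. Each number is taken and named here as 1 mouse, which the labels do not state. The total and polysomal libraries of a number are not stated to come from the same brain. Whole brains were used, so regions and cell types are mixed. The deposited table holds no read counts, so the counting error of a value cannot be given, and the mapped reads that the study lists per library were not used here. Between 23630 and 28070 genes were listed above 0 FPKM in a library, and the 16 mature neuron genes followed beside these 10 summed to between 2001 and 4214 FPKM.

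Neural stem cells and radial glia hold the intermediate filaments nestin (Nes) and vimentin (Vim), the transcription factor Sox2 and the fatty acid carrier Fabp7, also called brain lipid-binding protein. Contact with a ligand on a neighbouring cell cleaves the receptor Notch1, whose intracellular part joins the DNA-binding protein RBPJ and turns on repressors such as Hes5, which holds the cell in the progenitor state. Cells that leave it pass through Eomes-positive intermediate progenitors, switch on Sox4 and Sox11, and make doublecortin (Dcx), a microtubule-binding protein of migrating neurons. In the first postnatal days of the mouse such cells persist beside the ventricles, in the hippocampus and in the cerebellum, and Fabp7 and Vim are also present in immature astrocytes.

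The letters TGGGAA, the core that RBPJ reads, were searched on both strands in RefSeq promoters of the GRCm38.p6 build, from 250 bases before to 50 after the start. They were found for 3 of the 10 genes, against 25.6% of all 32851 promoters of this length. Hes5 is shown because it holds the letters at 2 places, as 3.79% of promoters do, and Fabp7 because the comparison of genotypes turns on it. Capitals mark TGGGAA, or TTCCCA where the match lies on the opposite strand, and both stretches are on the plus strand and end before the gene's first annotated base.
Hes5, chr4:154960673-154960922: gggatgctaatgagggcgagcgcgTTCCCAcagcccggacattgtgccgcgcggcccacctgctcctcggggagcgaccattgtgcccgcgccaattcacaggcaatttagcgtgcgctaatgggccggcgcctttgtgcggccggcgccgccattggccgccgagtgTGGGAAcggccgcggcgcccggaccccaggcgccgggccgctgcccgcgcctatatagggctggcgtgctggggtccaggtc
Fabp7, chr10:57784673-57784880: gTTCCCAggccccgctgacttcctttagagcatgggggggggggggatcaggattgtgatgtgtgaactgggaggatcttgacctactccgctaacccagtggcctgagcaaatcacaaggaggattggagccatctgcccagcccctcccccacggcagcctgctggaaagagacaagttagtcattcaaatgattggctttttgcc
Counted from the start, the matches began at positions -226 and -82 in Hes5 and at position -249 in Fabp7. In Sox4, the remaining gene with a match, the letters began at position -100. A match of 6 letters describes the sequence and is not evidence of binding.

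The levels of the 10 genes spanned nearly 3 orders of magnitude. Fabp7 (chr10:57784881-57788450) had the highest mean over the 20 libraries, 1151 FPKM, above 99.6% of the genes tested. Dcx (chrX:143855842-143933311) followed with 124 FPKM and Vim (chr2:13573927-13582826) with 68.96 FPKM. Then came a group of 4 transcription factors whose ranges overlapped, Sox4 (mean 29.0 FPKM; chr13:28948919-28953713), Sox11 (26.3 FPKM; chr12:27334264-27342574), Hes5 (22.0 FPKM; chr4:154960923-154962371) and Sox2 (21.5 FPKM; chr3:34650405-34652461). Notch1 (6.96 FPKM; chr2:26457903-26516663), Nes (3.14 FPKM; chr3:87971078-87980451) and Eomes (1.45 FPKM; chr9:118478212-118486132) were lowest, and Eomes stood above 5.76% of the genes tested. Coordinates are those of GENCODE M21 on GRCm38. Other annotated genes overlap the loci over which Sox2, Notch1, Hes5 and Sox4 were quantified, among them Sox2ot for Sox2 and the antisense Gm20421 for Hes5, and reads that such neighbours share could have been divided between them, so these 4 values are less certain.

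Whether the loss of Smn changed these genes was asked by comparing SMA with control brains. Fabp7 was the member for which every SMA library lay below every control library in both fractions and at both stages. In total RNA at P5, Fabp7 was 1416 and 1406 FPKM in the control brains and 756 and 920 FPKM in the SMA brains. In polysomal RNA at P5 it was 2525 and 1913 FPKM in controls against 1300 and 1204 FPKM in SMA. No SMA library reached the level of a control library of its fraction, which with 2 mice per group is also the case, in either direction, for 47.6% of all genes in total and 50.5% in polysomal RNA. At P7 the total RNA values were 922, 924 and 1186 FPKM in controls and 641, 732 and 664 FPKM in SMA. The polysomal values at P7 were 1228, 1238 and 1523 FPKM in controls and 805, 908 and 810 FPKM in SMA. The groups were separated at this stage too, and control mouse 3 was the highest of the 6 in each fraction.

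**Figure D1:**
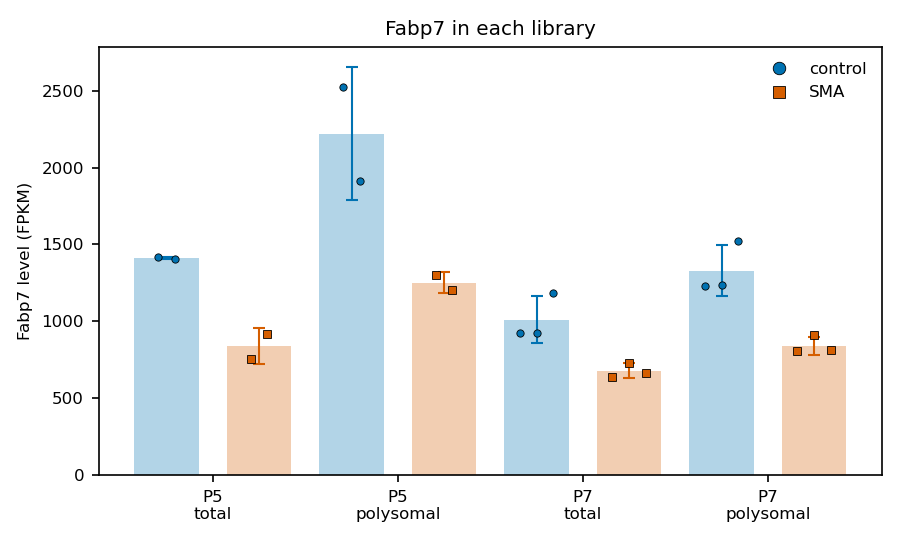
Fabp7 level in FPKM (vertical axis) in each library, by stage and fraction, with control libraries as blue circles and SMA libraries as orange squares. Bars show group means and error bars the SD (n = 2 at P5, n = 3 at P7), and in every stage and fraction each SMA point lies below each control point.

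Mean Fabp7 in total RNA fell from 1411 ± 7.65 FPKM to 837.6 ± 116 FPKM at P5 (SD, n = 2 per group) and from 1011 ± 152 FPKM to 679 ± 47.2 FPKM at P7 (SD, n = 3 per group), which is 40.6% and 32.8% less. In polysomal RNA the means were 43.6% and 36.8% less. On the log2(FPKM + 0.1) scale the change was -0.76 (SE 0.24, adjusted p = 0.551, limma) in P5 total RNA, -0.57 (SE 0.13, adjusted p = 0.323) in P7 total RNA and -0.66 (SE 0.13, adjusted p = 0.251) in P7 polysomal RNA. These 3 passed an unadjusted p of 0.05, the threshold of the study, but not Benjamini-Hochberg adjustment over the 15247 genes. The P5 polysomal change of -0.81 (SE 0.40, adjusted p = 0.448) missed the unadjusted threshold, with a 95% interval of -2.01 to 0.39. The P7 calls held without any 1 of the 6 mice, with changes between -0.63 and -0.45 in total and -0.71 and -0.55 in polysomal RNA. The P5 total RNA call was lost without control mouse 1 (-0.75), control mouse 2 (-0.76) or SMA mouse 1 (-0.62). At the same change of -0.76 it was lost with replicate numbers as a block and when genes of low level were kept. In the latter case Nes was called in its place (-0.29). The block together with a correction for transcript length lost it too (-0.54). Of all genes tested, 8.25% passed the unadjusted threshold in P5 total RNA, 12.5% in P5 polysomal RNA, 9.54% in P7 total RNA and 10.7% in P7 polysomal RNA, against 1 of the 10 members in each case. At P7, the groups of 15% of all genes in total and 16.1% in polysomal RNA did not overlap.

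With both stages in 1 model and stage as a covariate, Fabp7 fell by 0.64 on the log2 scale in total RNA (SE 0.10, adjusted p = 0.0366, limma) and by 0.72 in polysomal RNA (SE 0.12, adjusted p = 0.0408), lower in 5 of 5 SMA mice than in every control of the same stage, a separation that 5.73% of all genes in total and 6.67% in polysomal RNA showed in either direction. It was the member called in these models, in which 13.3% and 16.2% of all genes were called, and 95 and 121 genes, or 0.623% and 0.794%, passed adjustment. Passing adjustment needed all mice. Without any 1 of the 10 mice, Fabp7 still passed the unadjusted threshold, with changes between -0.69 and -0.58 in total and between -0.77 and -0.64 in polysomal RNA, but its adjusted p lay between 0.0521 and 0.127 and between 0.0585 and 0.13. With the genes of low level kept as well, the adjusted values were 0.0951 and 0.14, and with libraries rescaled to equal medians the total RNA value was 0.0538. The change did not differ detectably between the stages, the difference of P7 from P5 being 0.19 in total RNA (95% interval -0.30 to 0.68, adjusted p = 0.708) and 0.16 in polysomal RNA (95% interval -0.40 to 0.71, adjusted p = 0.775), and its sign turned with the correction for transcript length described next. In whole brain RNA, fewer cells that make Fabp7 and less Fabp7 RNA per cell cannot be told apart.

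The change of all genes between genotypes at P5 ran with transcript length. The median log2 change was -0.17 over the shortest quintile and 0.19 over the longest quintile of transcripts in total RNA, while at P7 it was 0.00 and -0.01. The Fabp7 transcript has 880 bases, and those of Dcx and Notch1 have 9074 and 9488. After a correction for this trend the P5 change of Fabp7 was -0.54 in total RNA and -0.64 in polysomal RNA, and that of Dcx in polysomal RNA moved from 0.40 to 0.18 and was no longer called.

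Among the other markers of stem cells, Nes, Vim and Sox2 were not called between genotypes. The study lists a primer pair for Nes among its qPCR primers. By qPCR it measured chosen genes that it had called changed, and genes of ribosomes and translation. Its main text does not say whether Nes was among them, and no qPCR value is given here. The pair is shown because it marks the stretch by which qPCR can measure the gene. Capitals in both mark the whole designed oligo.
Nes forward, exon 2 of 4, chr3:87973039-87973058: GATCGCTCAGATCCTGGAAG
Nes reverse, exon 4, chr3:87975490-87975509: AGAGAAGGATGTTGGGCTGA
Both lie in the coding sequence on GRCm38 and enclose 241 bases of the 6126-base transcript.

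Nes was 4.59 and 4.65 FPKM in the P5 control brains and 3.90 and 3.63 FPKM in the SMA brains in total RNA. In P5 polysomal RNA it was 4.69 and 5.24 FPKM against 4.79 and 3.73 FPKM. The total RNA groups were separated, as those of 47.6% of all genes were at this stage, and the polysomal groups overlapped. At P7 the ranges overlapped in both fractions, from 2.10 to 3.42 FPKM in controls against 1.54 to 2.41 FPKM in SMA for total RNA. The Nes change with both stages was -0.32 in total RNA (SE 0.16, adjusted p = 0.429) and -0.39 in polysomal RNA (SE 0.18, adjusted p = 0.323). Mean Nes was thus lower in SMA in all 4 comparisons, by 14.2% to 30.8%, without any of them being called. After the correction for transcript length Nes was called in P5 total RNA (-0.44) and over both stages (-0.38 in total, -0.43 in polysomal RNA).

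Vim was 105 and 113 FPKM in P5 control total RNA and 78.9 and 111 FPKM in SMA. The change was -0.22 (SE 0.20, adjusted p = 0.635) in P5 total RNA and -0.02 (SE 0.27, adjusted p = 1) in P7 total RNA. The intervals of the Vim change are wide, -0.84 to 0.40 at P5 and -0.70 to 0.66 at P7 in total RNA, and the genotypes overlapped in 3 of the 4 comparisons. Sox2 was 25.7 and 19.8 FPKM in P5 control total RNA against 14.2 and 22.5 FPKM in SMA. At P7 its change was 0.00 (95% interval -0.29 to 0.30) in total RNA and -0.03 (95% interval -0.36 to 0.29) in polysomal RNA, so differences beyond about those bounds were not seen.

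**Figure D2:**
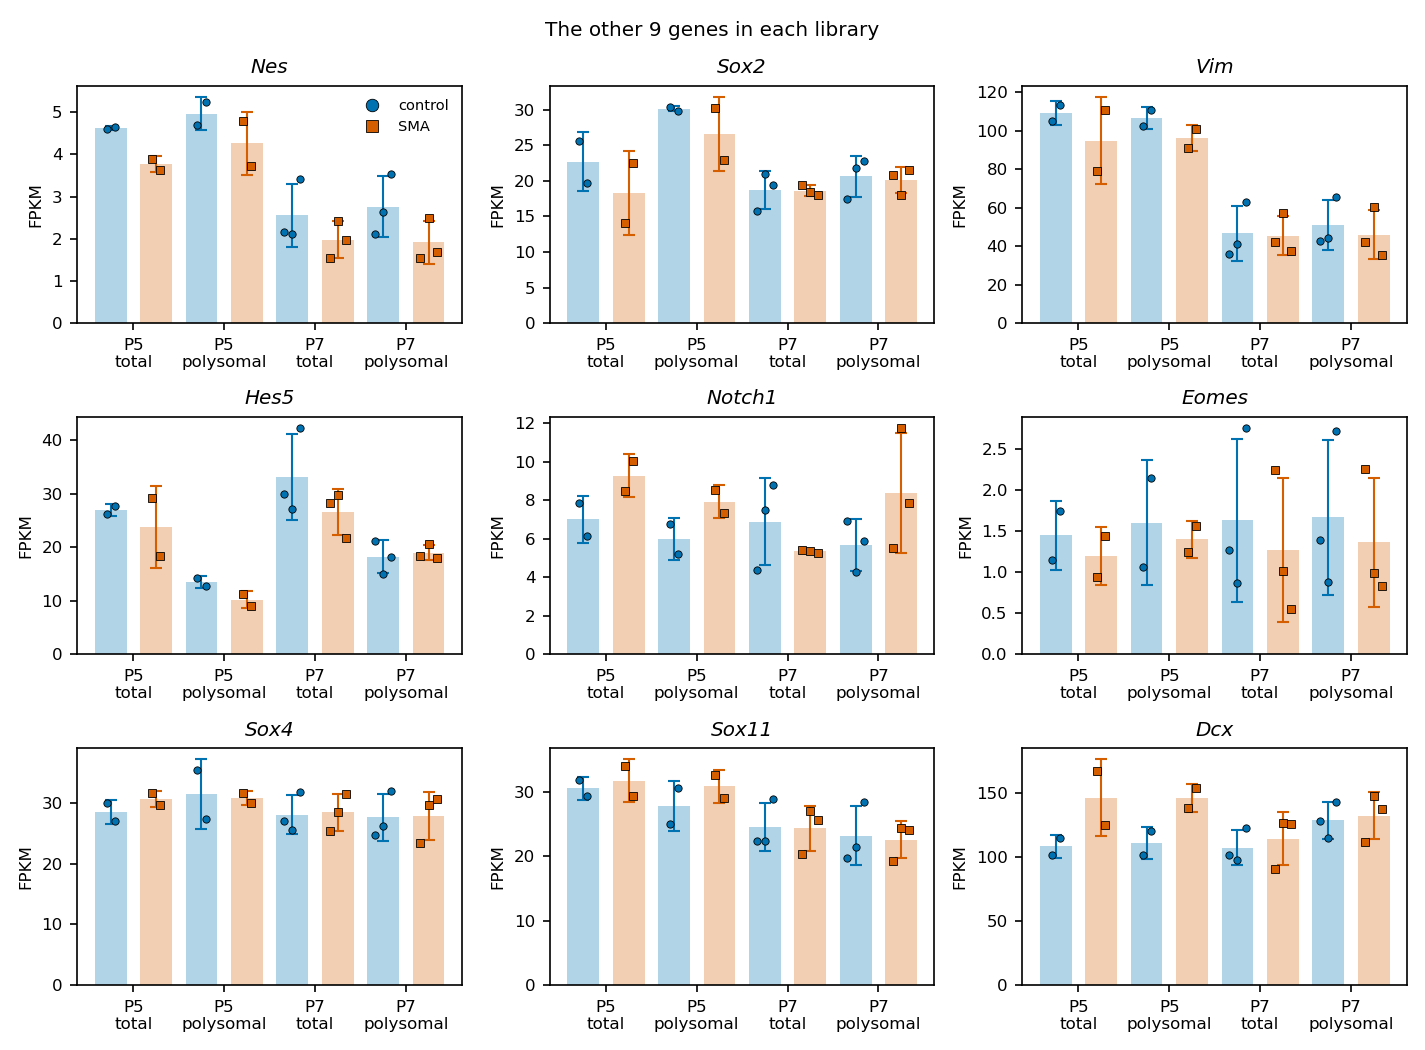
Levels in FPKM (vertical axes, each starting at 0) of the other 9 genes in each library, by stage and fraction, with control libraries as blue circles and SMA libraries as orange squares. Bars are group means and error bars the SD (n = 2 at P5, n = 3 at P7); Nes and Vim are lower at P7 than at P5 in both genotypes, and Dcx at P5 is higher in the SMA libraries.

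Notch1, the receptor, was 7.85 and 6.15 FPKM in P5 control total RNA and 8.47 and 10.1 FPKM in SMA. In P5 polysomal RNA it was 6.74 and 5.22 FPKM in controls against 8.52 and 7.34 FPKM in SMA. The groups were separated at P5 in both fractions, as those of 47.6% and 50.5% of all genes were. The log2 changes of 0.40 (SE 0.19, adjusted p = 0.551) and 0.41 (SE 0.20, adjusted p = 0.442) were not called. They are not corrected for the P5 trend with transcript length. At P7 the signs of the 2 fractions differed, -0.30 (SE 0.27, adjusted p = 0.735) in total and 0.51 (SE 0.33, adjusted p = 0.623) in polysomal RNA, and the groups overlapped. Without control mouse 1 at P7, whose total RNA value of 4.37 FPKM was the lowest, the total RNA change was -0.60 and was called.

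Hes5, the target gene, was 14.2 and 12.7 FPKM in P5 control polysomal RNA and 11.3 and 9.03 FPKM in SMA. The groups were separated, as in 50.5% of all genes, and the change of -0.41 (SE 0.16, adjusted p = 0.414) was not called. In P7 polysomal RNA the ranges were 15.1 to 21.2 FPKM in controls and 17.98 to 20.5 FPKM in SMA, a change of 0.07 (SE 0.14, adjusted p = 0.889). In total RNA it was 26.2 and 27.7 FPKM in controls against 29.2 and 18.3 FPKM in SMA at P5, and 30.0, 27.2 and 42.3 FPKM against 28.2, 29.7 and 21.7 FPKM at P7. The groups overlapped at both stages, with changes of -0.22 (SE 0.27, adjusted p = 0.713) and -0.31 (SE 0.21, adjusted p = 0.688), and -0.27 over both (95% interval -0.65 to 0.11, adjusted p = 0.517), none of them called. The difference of the polysomal change between the stages, 0.48 (95% interval -0.04 to 1.00, adjusted p = 0.387), was not called, nor were those of the other 9 genes in either fraction. Of all genes, 10.1% in total and 13.7% in polysomal RNA were called for a difference between stages.

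Eomes, the intermediate progenitor factor, varied among mice of a group more than between groups. In P7 total RNA it was 1.27, 0.87 and 2.75 FPKM in controls and 2.24, 1.01 and 0.55 FPKM in SMA. In polysomal RNA of the same mouse numbers it was 1.39, 0.88 and 2.72 FPKM and 2.26, 0.99 and 0.83 FPKM. Control mouse 3 and SMA mouse 1 were high in both fractions, and a change as large as -1.97 or 1.19 lies within the interval for P7 total RNA.

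Sox4 and Sox11, transcription factors of newly formed neurons, were nearly level between genotypes. Sox4 ranged from 25.6 to 31.8 FPKM in P7 control total RNA and from 25.4 to 31.6 FPKM in SMA, and its change over both stages was 0.05 (95% interval -0.13 to 0.23) in total RNA and 0.00 (95% interval -0.25 to 0.25) in polysomal RNA. Sox11 changed by 0.01 (95% interval -0.22 to 0.25) and 0.04 (95% interval -0.24 to 0.32). Changes outside these intervals were not seen for either gene.

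Dcx was 102 and 115 FPKM in P5 control total RNA and 168 and 125 FPKM in SMA. In P5 polysomal RNA it was 102 and 120 FPKM in controls and 139 and 154 FPKM in SMA. The SMA libraries were above the control libraries in both fractions, a separation of groups that 47.6% and 50.5% of all genes showed, with changes of 0.42 (SE 0.19, adjusted p = 0.551), which was not called, and 0.40 (SE 0.12, adjusted p = 0.393), which was. At P7 the groups overlapped, with changes of 0.08 (SE 0.17, adjusted p = 0.916) and 0.04 (SE 0.13, adjusted p = 0.956). The difference between stages was -0.34 (adjusted p = 0.601) in total and -0.36 (adjusted p = 0.458) in polysomal RNA. The polysomal call at P5 was lost with genes of low level kept, with equal medians, in 1 model over all libraries, and without control mouse 1 (0.28), SMA mouse 1 (0.48) or SMA mouse 2 (0.32).
Dcx lies on the X chromosome, and the sexes were unequal between groups. Judged by Xist, the RNA of the inactive X chromosome, and by 4 Y-linked genes, whose summed level was at least 60.9 FPKM in some libraries and at most 1.65 FPKM in the rest, both P5 controls were male and SMA mouse 1 was female, and at P7 there were 2 females among the 3 controls and 1 among the 3 SMA mice. Total and polysomal libraries of a mouse number agreed in sex. The part of sex in the Dcx values was not tested.

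**Figure D3:**
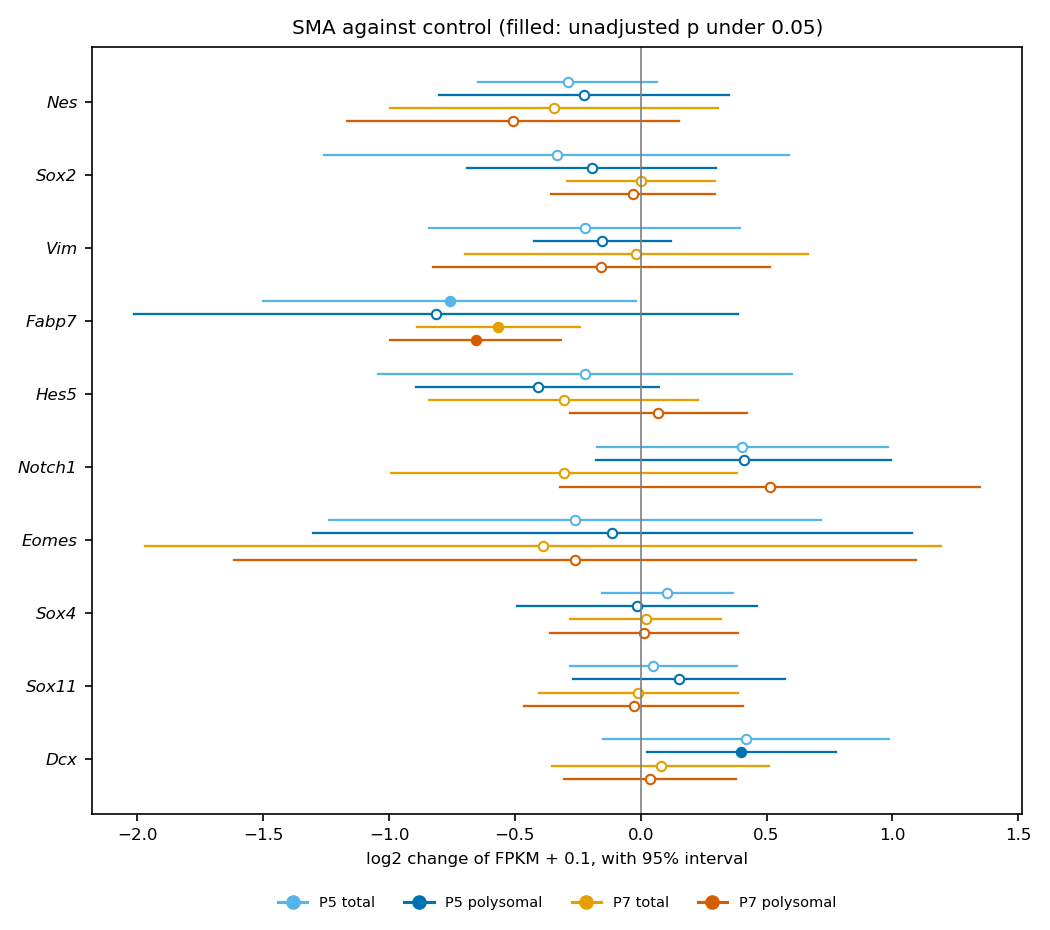
Log2 change of SMA against control (horizontal axis, FPKM + 0.1) for the 10 genes in the 4 comparisons of stage and fraction, with 95% intervals. Filled points passed an unadjusted p of 0.05: Fabp7 in 3 comparisons, between -0.57 and -0.76, and Dcx in P5 polysomal RNA at 0.40.

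The rest of the Notch pathway was followed in lists of ligands, receptors, targets and modifiers. In P7 total RNA, 0 of 6 ligands, 0 of 7 receptors and transcriptional partners, 1 of 8 further targets and 0 of 10 modifiers were called, against 9.54% of all genes. The target was Id4, an inhibitor of helix-loop-helix factors, which rose by 0.32 (SE 0.10, adjusted p = 0.436). In P5 polysomal RNA the called genes were Dlk1 and Dner among the ligands, both higher, Notch4 among the receptors, higher, Hes1 among the targets, lower, and Mfng among the modifiers, lower, 5 of 31 in a comparison where 12.5% of all genes were called. In P5 total RNA 1 of the 31 was called, Notch2, higher, against 8.25% of all genes. In P7 polysomal RNA 3 were, all lower, Hes1, Mfng and Adam10, a protease that cuts Notch receptors, against 10.7%. Hes1, a repressor related to Hes5, was 5.83 and 6.88 FPKM in the control and 4.21 and 3.41 FPKM in the SMA polysomal libraries at P5. At P7 its polysomal values were 4.67, 6.54 and 5.44 FPKM against 3.84, 4.25 and 4.53 FPKM. The groups did not overlap at either stage, as those of 50.5% of all genes at P5, 16.1% at P7 and 6.67% at both did not. Over both stages Hes1 fell by 0.52 (SE 0.12, adjusted p = 0.117). In total RNA, Hes1 overlapped between genotypes at P5, at 7.70 and 5.46 against 7.07 and 6.76 FPKM. Mfng, an enzyme that adds sugars to Notch receptors, fell by 0.77 in polysomal RNA over both stages (SE 0.12, adjusted p = 0.0364), from between 1.86 and 2.42 FPKM in controls to between 0.87 and 1.71 FPKM in SMA.

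Broader lists of the same cell states were mostly not called. Of 18 further genes of neural stem cells and radial glia, 0 were called at P5 in either fraction, where 8.25% and 12.5% of all genes were, and 1 at P7 in each, where 9.54% and 10.7% were. It was the endothelin receptor gene Ednrb, which fell by 0.20 in total RNA (SE 0.08, adjusted p = 0.505) and by 0.30 in polysomal RNA (SE 0.09, adjusted p = 0.374). Their median change was between -0.01 and 0.09 in the 4 comparisons, against -0.01 to 0.01 for all genes. Of 34 further genes of immature neurons, 2 rose at P5 in total RNA (Robo1, an axon guidance receptor, and Prox1, a factor of hippocampal granule neurons), 5 rose in P5 polysomal RNA, 0 changed in P7 total RNA and 1, Dlx6, rose in P7 polysomal RNA. Of all genes, 4.36%, 5.65%, 4.84% and 5.35% were called higher in these 4 comparisons. The 5 include Tubb3, whose P5 control polysomal values are listed at 0 and may be failed estimates, and the others were Robo1, Dclk1, Dclk2 and Sp9. The P5 calls of these lists are not corrected for the trend with transcript length. Of 6 proneural factors tested, Insm1 fell in P5 total RNA by 0.99 (SE 0.24, adjusted p = 0.551), and none of the 6 was called in the other 3 comparisons.

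Lists of other cell states moved between genotypes in the same libraries. Beside them, 3.89%, 6.82%, 4.7% and 5.38% of all genes were called lower in P5 total, P5 polysomal, P7 total and P7 polysomal RNA. All 16 proliferation genes had lower fitted values in SMA in each of the 4 comparisons, with 7 called in P5 total RNA, 13 in P5 polysomal RNA, 1 in P7 total RNA and 0 in P7 polysomal RNA, and medians of -0.74, -0.81, -0.44 and -0.40. Their summed level in P5 total RNA was 170 and 226 FPKM in controls and 122 and 137 FPKM in SMA. At P7 it was 109, 123 and 163 FPKM against 104, 125 and 81.3 FPKM, with the lowest sum in SMA mouse 3. Pcna, the replication clamp, was the most abundant. Cdk1, the mitotic kinase, fell most in P5 polysomal RNA, from 28.2 and 26.8 FPKM to 9.08 and 8.33 FPKM (log2 change -1.65, SE 0.09, adjusted p = 0.0305).

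Of 14 endothelial markers, 10, 8, 9 and 10 fell in P5 total, P5 polysomal, P7 total and P7 polysomal RNA, while Ly6c1 rose in P7 total RNA. Their sum in P7 total RNA was 109, 118 and 134 FPKM in controls and 91.0, 96.2 and 91.0 FPKM in SMA, with the junction gene Cldn5 most abundant. Of 9 pericyte and smooth muscle markers tested, 4, 5, 8 and 9 fell, led in abundance by Rgs5, and their P7 total RNA sums were 87.5, 88.4 and 96.3 FPKM against 46.2, 59.3 and 54.4 FPKM. The sums of these lists did not overlap between genotypes at P7, where the groups of 15% of all genes in total and 16.1% in polysomal RNA did not. Of 12 astrocyte markers, 6, 2, 5 and 5 rose, against the 4.36%, 5.65%, 4.84% and 5.35% of all genes called higher, and their P7 total RNA sums were 863, 968 and 876 FPKM in controls and 1281, 1122 and 1035 FPKM in SMA, with Sparcl1 most abundant. No marker of these 4 lists was at 0 in any library. Their part in the Fabp7 result was not tested.

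The stages were compared within each genotype and fraction, and what else differed between the P5 and P7 collections cannot be told apart from age. Vim and Nes were lower at P7 in all 4 of these comparisons. Vim fell from 105 and 113 FPKM at P5 to 35.8, 41.2 and 62.9 FPKM at P7 in control total RNA. In SMA total RNA it fell from 78.9 and 111 FPKM to 42.1, 57.0 and 37.3 FPKM. In neither genotype did any P7 library reach a P5 library, a separation that 58.5% of all genes showed in control and 51.6% in SMA total RNA. The log2 changes of Vim were -1.27 (SE 0.27, adjusted p = 0.0434) and -1.10 (SE 0.22, adjusted p = 0.0401) in control total and polysomal RNA, and -1.06 (SE 0.25, adjusted p = 0.0791) and -1.10 (SE 0.25, adjusted p = 0.0476) in SMA. Nes, also a filament protein, fell by 0.86 (SE 0.25, adjusted p = 0.0804), 0.85 (SE 0.25, adjusted p = 0.0748), 0.92 (SE 0.21, adjusted p = 0.0776) and 1.13 (SE 0.26, adjusted p = 0.0478) in the same order. Its P7 values were at most 3.54 FPKM and its P5 values at least 3.63 FPKM in every group. In polysomal RNA the stages of 59.8% of all genes in controls and 58.7% in SMA did not overlap.

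In control total RNA, 3 of the 10 members were called, Nes, Vim and Fabp7, against 40.3% of all genes. In control polysomal RNA 3 were called, Nes, Vim and Sox2, against 42% of all genes. In SMA total RNA 3 were called, Nes, Vim and Notch1, against 32.7%, and in SMA polysomal RNA 5, Nes, Vim, Fabp7, Sox11 and Hes5, against 41%. The members' share was above that of all genes in the last of these and below it in the other 3. The counts were sensitive to single mice: 1 call was left in control total RNA without either P5 mouse or without P7 mouse 1 or 2, 1 in control polysomal RNA without either P5 mouse, and 2 in SMA polysomal RNA without P5 mouse 1. All of these calls were decreases except that of Hes5, which in SMA polysomal RNA rose from 11.3 and 9.03 FPKM to 18.3, 20.5 and 17.98 FPKM (log2 change 0.90, SE 0.13, adjusted p = 0.0231). In control polysomal RNA Hes5 went from 14.2 and 12.7 FPKM to 21.2, 15.1 and 18.2 FPKM (log2 change 0.42, SE 0.17, adjusted p = 0.14), which was not called. In total RNA the Hes5 ranges of the stages overlapped in both genotypes.

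**Figure D4:**
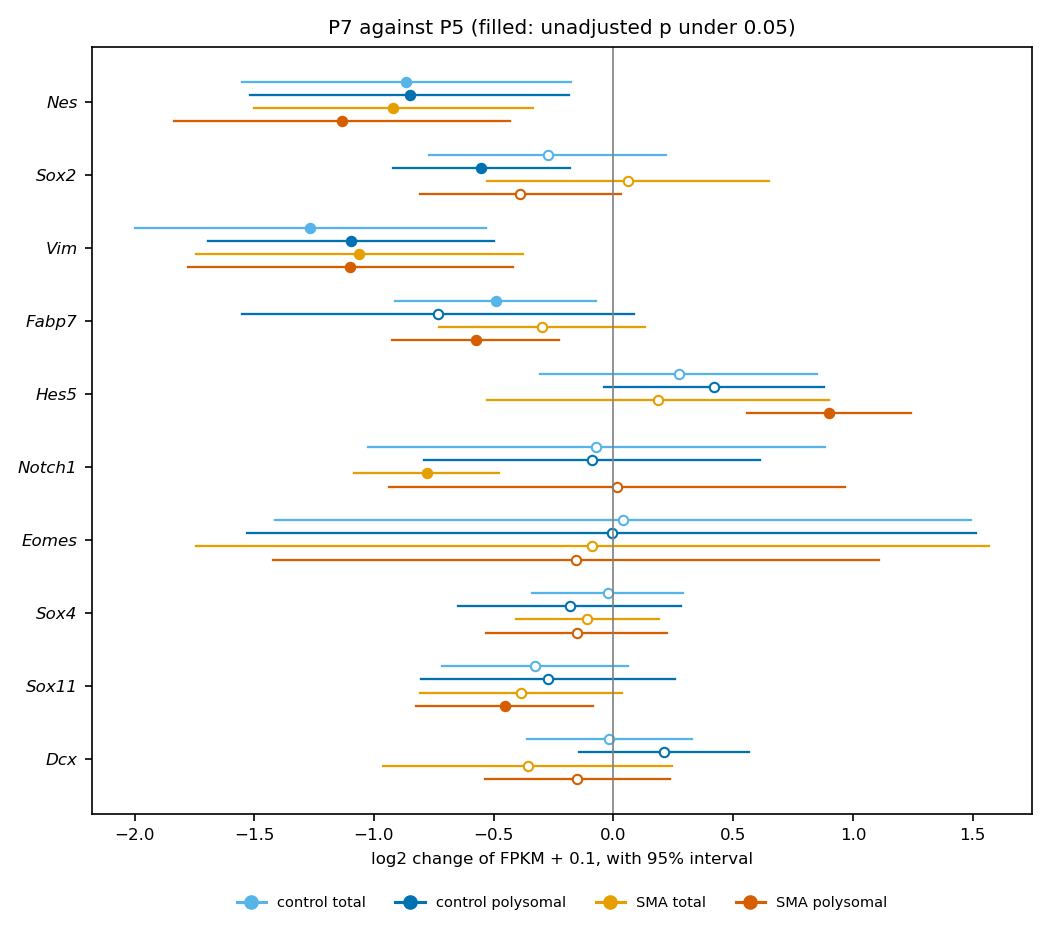
Log2 change of P7 against P5 (horizontal axis, FPKM + 0.1) for the 10 genes in control and SMA total and polysomal RNA, with 95% intervals and filled points where the unadjusted p was under 0.05. Vim and Nes lie between -0.85 and -1.27 in all 4 comparisons, and Sox4, Eomes and Dcx were called in none.

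Fabp7 was lower at P7 in every group, with no overlap of the stages, which is also the case, in either direction, for 58.5%, 59.8%, 51.6% and 58.7% of all genes in control total, control polysomal, SMA total and SMA polysomal RNA. Its change was -0.49 (SE 0.15, adjusted p = 0.092) in control total and -0.73 (SE 0.30, adjusted p = 0.146) in control polysomal RNA. In SMA it was -0.30 (SE 0.16, adjusted p = 0.269) in total and -0.57 (SE 0.13, adjusted p = 0.0462) in polysomal RNA. The control total and SMA polysomal changes were called. The SMA total change was -0.44 without P5 SMA mouse 1 and -0.157 without P5 SMA mouse 2. With the correction for transcript length it was -0.527 and was called. Of the P5 SMA total RNA values, 756 and 920 FPKM, the higher was close to the lowest P7 control value, 922 FPKM. These values are not corrected for the P5 trend with transcript length, and this comparison across stages was not tested. Notch1 fell in SMA total RNA from 8.47 and 10.1 FPKM to 5.39, 5.36 and 5.25 FPKM (log2 change -0.78, SE 0.11, adjusted p = 0.0438), while in control total RNA it was 7.85 and 6.15 FPKM against 4.37, 7.5 and 8.79 FPKM. Sox4 was within 0.18 log2 units of no change in each of the 4 comparisons and Dcx within 0.36. Sox2 in SMA total RNA changed by 0.06 (SE 0.22, adjusted p = 0.873), and by -0.27 when SMA mouse 1 of P5 was left out, so its sign rests on that mouse.

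Of the 31 further Notch genes in the 4 lists, 9 in control total, 13 in control polysomal, 9 in SMA total and 14 in SMA polysomal RNA were called between the stages. These counts were near or below the 40.3%, 42%, 32.7% and 41% of all genes called. The ligand gene Jag2 fell in all 4 comparisons, by 0.58 to 0.77, with adjusted p between 0.0295 and 0.0484. Hes6 fell by 0.50 to 1.19 and Gas1 rose by 0.81 to 0.99, and both were called in all 4. Rfng, a further sugar-adding enzyme, rose by 0.75 to 1.32. Of the 16 proliferation genes, 6 and 11 fell in control total and polysomal RNA and 3 and 2 in SMA, against 20.1%, 21.4%, 17% and 19.9% of all genes, so that the SMA counts were near or below the share of all genes. Of 16 mature neuron genes 11, 10, 9 and 10 rose, led by Slc17a7, the vesicular glutamate transporter, and Vsnl1, a neuronal calcium sensor, against 20.1%, 20.7%, 15.7% and 21.1% of all genes.

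Polysomal RNA was set against total RNA to ask how far each transcript was carried by ribosomes. In controls 1 of the 10 members was called at each stage, Hes5, against 25.9% of all genes at P5 and 25.3% at P7. Hes5 was 26.2 and 27.7 FPKM in total and 14.2 and 12.7 FPKM in polysomal RNA at P5. At P7 it was 30.0, 27.2 and 42.3 FPKM in total and 21.2, 15.1 and 18.2 FPKM in polysomal RNA. Polysomal libraries were below total libraries at both stages, and the fractions of 62% of all genes at P5 and 30.8% at P7 did not overlap. From total to polysomal RNA, Hes5 fell by 1.00 on the log2 scale (SE 0.09, adjusted p = 0.0611) and by 0.85 (SE 0.21, adjusted p = 0.082). The fractions are scaled to their own libraries, so a difference is relative to other genes of the fraction and not an absolute share of molecules. Fabp7 lay on the other side, at 0.64 (SE 0.37, adjusted p = 0.348) and 0.40 (SE 0.16, adjusted p = 0.201), and was not called. Each of its polysomal control libraries was above each total library of the stage, a separation within the 62% and 30.8% of all genes given above. When libraries of the same mouse number were paired, which the labels do not state to be the same brain, Fabp7 (adjusted p = 0.0918) and Dcx were called at P7 as well, both higher in polysomal RNA, at unchanged log2 differences of 0.40 and 0.26. That made 3 of the 10 members, with 29.1% of all genes called in the same paired fit. Dcx, Sox4, Sox11, Nes, Vim and Eomes were between -0.14 and 0.26. Sox2 was 0.42 at P5 (SE 0.15, adjusted p = 0.215) and 0.14 at P7, and Notch1 was -0.22 and -0.24, none of them called. With libraries rescaled to equal medians Sox2 was called at P5 (0.47).

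The polysomal minus total difference, called translation efficiency in the study, was then compared between genotypes. It was tested as a difference of group differences, without pairing libraries by mouse number, and is given below for each number as a description. For Hes5 it was -0.88 and -1.12 in the P5 controls and -1.37 and -1.01 in SMA. At P7 it was -0.50, -0.85 and -1.21 in controls and -0.62, -0.53 and -0.27 in SMA. The genotypes overlapped at both stages. For Fabp7 it was 0.834 and 0.445 in the P5 controls and 0.783 and 0.388 in SMA, where the genotypes overlapped. At P7 it was 0.41, 0.42 and 0.36 in controls and 0.33, 0.31 and 0.29 in SMA, where the genotypes did not overlap. The share of all genes with such a separation was not counted. The P7 difference between genotypes was -0.09. Its 95% interval was -0.49 to 0.31 without pairing (adjusted p = 1) and -0.24 to 0.06 with libraries paired by number (adjusted p = 0.959). At P5 the difference was -0.05, with an interval of -0.88 to 0.77 (adjusted p = 1) and, paired, of -1.22 to 1.11 (adjusted p = 1). Of the 10 members, 0 were called at either stage, paired or not, against 2.32% and 2.07% of all genes unpaired and 2.77% and 4.32% paired, at P5 and P7. Notch1 had the largest difference at P7, 0.82 (95% interval -0.19 to 1.83, adjusted p = 1), with values of 0.65, -0.80 and -0.58 in controls and 0.03, 1.12 and 0.57 in SMA. Without control mouse 1 it was 1.26 and was called.

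**Figure D5:**
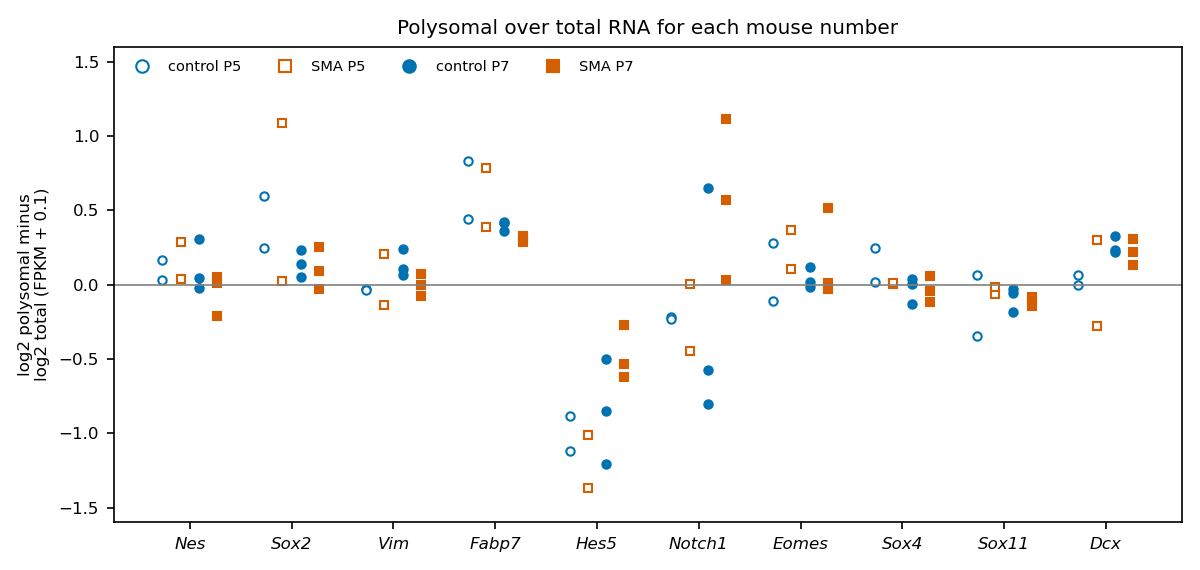
Log2 polysomal minus log2 total level (vertical axis, FPKM + 0.1) for each of the 10 mouse numbers and each gene, with controls as blue circles and SMA as orange squares, open at P5 and filled at P7. Hes5 lies below 0 in every mouse, between -1.37 and -0.27, and Fabp7 above 0 in every mouse, between 0.29 and 0.83.

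The genes whose level ran most closely with each member were found by Pearson's correlation of log2 values over the 20 libraries, among the 10769 genes averaging 5 FPKM or more. The libraries share stage, fraction and genotype, so these values describe the pattern only. Fabp7 was most like Serpinh1 (r = 0.985), a collagen chaperone, Ppic (r = 0.972), a prolyl isomerase, and Vwa1 (r = 0.965), an extracellular matrix protein. Serpinh1 was 24.0 ± 0.141 FPKM in P5 control and 15.4 ± 2.26 FPKM in P5 SMA total RNA (SD, n = 2), and 18 ± 2.56 FPKM and 13.7 ± 1.30 FPKM at P7 (SD, n = 3). Vim was most like Odc1 (r = 0.949), Plxnb2 (r = 0.945) and Lmnb1 (r = 0.941), and Nes most like Prkd3 (r = 0.94), Gjc1 (r = 0.927) and Vgll4 (r = 0.926). Dcx ran with Cand1 (r = 0.912), Sox2 with Fam181b (r = 0.905), Sox11 with Mex3a (r = 0.872) and Sox4 with Nfe2l3 (r = 0.844). Hes5 ran with Gm26083 (r = 0.899), which was also lower in polysomal RNA. In P7 controls Gm26083 was 752 ± 31.1 FPKM in total and 80.3 ± 35.1 FPKM in polysomal RNA (SD, n = 3). Notch1 and Eomes had no gene above 0.752 and 0.729.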

How the data were processed

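The authors sequenced stranded total RNA libraries of 100-base reads, aligned them with TopHat2 2.0.14 to GRCm38.p4 and deposited FPKM values per gene from Cufflinks 2.2.1, by the study's methods and the submitters' processing notes. No column was left unmapped and no libraries were identical. Here log2(FPKM + 0.1) was tested with limma 3.58.1 (R 4.3.3, mean-variance trend) over the 15247 genes averaging 1 FPKM or more, on the libraries compared. Called means an unadjusted p under 0.05, and adjusted p is Benjamini-Hochberg over all 15247. Replicate numbers were taken as separate mice, which the labels do not state. The fits were checked on data with known answers.

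Members and lists were chosen with earlier results of these data known. All members were described. From other lists, up to 3 called genes per direction with separate groups and the largest change could be named, and the 3 genes most like each member; further values were chosen after they were seen. Transcript lengths are from GENCODE M21, known for 98.8% of genes. Alternatives were a pseudocount of 1, no filter, equal medians, a length correction, 1 model over 20 libraries, a replicate block and leaving out each mouse.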

Additional observations from a re-analysis of the deposited data

Results flagged for a closer look

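Tubb3, a neuronal tubulin gene from the list of immature neurons, differed between the stages in its polysomal change between genotypes, by -13.19 on the log2 scale (adjusted p = 7.62e-08, limma interaction of stage and genotype). It was listed at 0 in both P5 control polysomal libraries, while the P5 SMA polysomal libraries held 986 and 859 FPKM, the P5 control total libraries 811 and 736 FPKM and the P7 control polysomal libraries 1051, 770 and 932 FPKM. A listed 0 can be a failed estimate. The -13.19 rests on those listed zeros and the pseudocount of 0.1, so its size is no fold and the test cannot be read as a change of the gene. Tuba1a, a further tubulin gene, was listed at 0 in all 4 P5 polysomal libraries and between 1493 and 1871 FPKM in the P5 total libraries.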

How the results depend on the processing

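Counts of the 10 members called were small, so 1 gene more or fewer moves them. With libraries rescaled to equal medians they were 2 in P5 total RNA, 2 over both stages in polysomal RNA, 1 for the polysomal difference between stages, 5 for P7 against P5 in control polysomal RNA, and 2 at each stage for polysomal against total RNA. With the correction for transcript length they were 2 in P5 total RNA, 0 in P5 polysomal RNA, 2 over both stages in each fraction, 5 for control polysomal RNA between days, and 2 at each stage between fractions. In 1 model over all 20 libraries they were 2 in P5 total, 2 in P7 polysomal and 2 in both-stage polysomal RNA, 2 at each stage between fractions, and 1 for translation efficiency at P7. Of all genes, this model called 25% in P5 polysomal, 9.98% in P7 polysomal and 22.4% in both-stage polysomal RNA. It takes the 20 libraries as independent, which total and polysomal libraries of a mouse number may not be. Fabp7 was then called between genotypes in P5 polysomal RNA (adjusted p = 0.0193, limma) in place of Dcx. Its adjusted p was 0.0422 in P7 polysomal, 0.0581 in P5 total and 0.0955 in P7 total RNA. With genes of low level kept, 0 were called in P5 polysomal RNA, and with a pseudocount of 1, 2 were called between fractions at P7. Of 160 member results, 159 kept their call with a pseudocount of 1, 156 with low genes kept, 151 with equal medians, 150 in 1 model and 149 with the length correction, and among these uncalled values changed sign in 2, 0, 5, 2 and 13 cases. With the length correction the difference of Fabp7 between stages was -0.06 in total and -0.03 in polysomal RNA.

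Replicate numbers were tried as a replicate block. Same-numbered control and SMA libraries did not deviate together at both stages and in both fractions (correlations from -0.0902 to 0.0327 over 15247 genes, and over 9779 coding genes of higher level 0.195 in P5 polysomal RNA and -0.302 to -0.0764 elsewhere). Same-numbered total and polysomal libraries did so over the 9779 (0.122 to 0.539) but not over all 15247 (-0.0391 to 0.109), and they agreed in sex, a hint from the data that they share a brain. The pairing of fractions is therefore given beside the result it changes. With the block, 0 members were called in P5 total RNA, 2 in P5 polysomal RNA and 3 between fractions at P7, 96 of 100 member results kept their call, and the adjusted p of Fabp7 over both stages was 0.205 in total and 0.192 in polysomal RNA. The block together with the length correction, chosen after seeing the data, gave 0 calls in P5 polysomal RNA and 2 over both stages in each fraction. Over all genes, the share called in P5 total RNA was 4.77% with the block and 19.8% in 1 model, against 8.25%. The P5 shares of both fractions also moved, up or down, when single mice were left out.

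Leaving out a mouse at P5 leaves 1 library in its group. The members' count between genotypes then rose and fell with the share of all genes called, so it is not given. Leaving out each mouse in turn gave 1 to 2 calls in P7 total RNA, where 6.72% to 11.2% of all genes were called. It gave 1 to 2 in P7 polysomal RNA, against 7.25% to 13.5%, and 1 to 2 in both-stage total RNA, against 9.82% to 13.7%. In both-stage polysomal RNA it gave 1 to 3. It gave 0 to 1 for the difference between stages in total and 0 to 1 in polysomal RNA, 1 to 4 for days in control total, 1 to 4 in control polysomal, 3 to 4 in SMA total and 2 to 6 in SMA polysomal RNA. Between fractions it gave 1 to 2 at P5 and 1 to 3 at P7, and for translation efficiency 0 to 0 at P5 and 0 to 1 at P7. Where 1 library was left in a group, it was assumed to vary like the others. The counts without a share of all genes beside them are given as a description only. The sign of Sox2 between days in SMA total RNA turned, from -0.27 without P5 mouse 1 to 0.39 without P5 mouse 2. Groups of 2 and 3 mice leave wide intervals, and without read counts per gene the counting error of a low value such as that of Eomes cannot be given.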

Other observations

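Markers of further cell types also differed between genotypes. They are read against the 8.25%, 12.5%, 9.54% and 10.7% of all genes called in P5 total, P5 polysomal, P7 total and P7 polysomal RNA. The lists are short, so counts of 1 or 2 are given as a description only. Of 9 ependymal and choroid plexus markers tested, 0 were called at P5 and 5 rose at P7 in each fraction. Their summed level in P7 total RNA, led by the thyroid hormone carrier Ttr, was 425, 427 and 398 FPKM in controls and 843, 750.0 and 663 FPKM in SMA. Of 8 fibroblast and meningeal markers, 3 fell in each fraction at P5, and 4 fell and 1 rose in each at P7. Of 10 microglia markers, 1 fell in P5 total RNA, 2 fell in P5 polysomal RNA, 4 rose and 1 fell in P7 total RNA, and 3 rose in P7 polysomal RNA. Of 10 oligodendrocyte precursor markers, 2 rose in P5 total RNA, 2 fell in P5 polysomal RNA, and 1 rose and 1 fell in each fraction at P7. Of 7 oligodendrocyte markers tested, 0 were called by limma in any of the 4 comparisons, and of 6 erythroid genes 1 fell in P5 total RNA and 1 in P7 polysomal RNA. Of 16 mature neuron genes, 2 rose in P5 total RNA, 1 in P5 polysomal RNA and 0 at P7.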
